A study of Mus musculus with 6 samples.

Results

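Melanocyte lineage genes were followed through ATAC-seq peak lists of mouse back skin epidermis. ATAC-seq marks open chromatin by letting a transposase cut and tag accessible DNA. The 10 genes were Mitf, Sox10, Pax3, Kit, Tyr, Tyrp1, Dct, Oca2, Pmel and Mlana. Overlapping peaks of the 6 lists were merged into 75738 consensus regions, and a region belonged to the gene set when the protein-coding gene span nearest to it, at no more than 50 kb, was one of the 10. This gave 36 regions at 8 genes, while Tyr and Kit had none. Positions are in mm10. Of all regions, 62802 lay within 50 kb of some protein-coding gene, and these serve as the background.

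The cells came from C57BL/6 mice carrying TNC-CREER and tdTomato, a tamoxifen-activated Cre driven by the tenascin-C gene with a red fluorescent reporter. Tamoxifen was given to all animals at 100 µg per g, on day 51 and again on day 52 after birth, and skin was taken on day 60. Touch dome (TD) cells, keratinocytes of the small sensory patches that hold Merkel cells, were positive for EPCAM, SCA1, α6-integrin and the reporter. Interfollicular epidermis (IFE) cells shared those 3 surface markers but lacked the reporter. Hair follicle (HF) cells had EPCAM and α6-integrin without SCA1 or the reporter. Every population had 2 libraries of 50000 cells, and the labels do not say whether they came from separate animals, so their spread may be technical. The populations are thus defined by the gate and by Tnc-driven labelling alone, and all 3 carry the same alleles and tamoxifen.

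Peak number per library lay between 50153 and 59250, with the highest in TD replicate 2. The lists hold positions only, so depth is unknown, a missing peak means that none was called, and a weak peak in all cells cannot be told apart from a strong peak in a few. The 6 keratinocyte marker genes examined (Krt5, Krt14, Trp63, Col17a1, Itga6 and Epcam) all had regions, with 57 and 65 of their 85 regions open in TD, 70 and 65 in IFE, and 57 and 59 in HF.

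Melanocytes are the pigment cells of skin and descend from the neural crest. MITF is their central transcription factor, its gene is switched on by SOX10 and PAX3, and the receptor KIT is needed for their migration and survival. MITF in turn activates the genes of melanin synthesis (Tyr, Tyrp1, Dct) and of the melanosome, the organelle in which melanin is made (Oca2, Pmel, Mlana). In mouse back skin most adult melanocytes sit in hair follicles. Mitf has several promoters, of which the one furthest downstream makes the melanocyte isoform, while upstream ones are also used in other cell types.

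The bases just before a gene's start carry much of this wiring. RefSeq (GRCm38.p6, the assembly behind mm10) gave 9 start sites for 6 of the 10 genes (Mitf, Oca2, Dct, Tyr, Kit and Tyrp1). The 250 bases before a start are shown for the 3 Mitf starts, because the libraries had peaks at the first and not at the other 2, and for the 3 enzyme genes, because each holds the MITF-binding letters TCATGTG (the M-box). Capitals mark TCATGTG, the shorter E-box CATGTG that lies within it, and the SOX letters ACAAAG, on either strand.
Mitf first start, chr6:97806808-97807057, plus strand: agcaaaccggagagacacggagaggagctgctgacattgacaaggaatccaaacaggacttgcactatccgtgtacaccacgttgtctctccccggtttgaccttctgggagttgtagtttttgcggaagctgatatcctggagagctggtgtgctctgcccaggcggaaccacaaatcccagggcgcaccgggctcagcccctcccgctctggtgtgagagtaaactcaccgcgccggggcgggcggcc
Mitf second start, chr6:97929567-97929816, plus strand: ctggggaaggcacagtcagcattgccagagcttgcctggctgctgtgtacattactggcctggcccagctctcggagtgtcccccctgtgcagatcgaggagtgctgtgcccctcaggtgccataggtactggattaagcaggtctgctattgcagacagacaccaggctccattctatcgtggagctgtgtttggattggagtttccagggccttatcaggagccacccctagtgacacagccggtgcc
Mitf at the third start, chr6:97991533-97991782, plus strand: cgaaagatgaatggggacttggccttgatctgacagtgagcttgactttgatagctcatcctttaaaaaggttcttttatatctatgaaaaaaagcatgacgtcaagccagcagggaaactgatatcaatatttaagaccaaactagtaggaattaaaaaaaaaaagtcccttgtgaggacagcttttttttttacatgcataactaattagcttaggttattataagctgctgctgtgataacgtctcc
Dct, chr14:118052247-118052496, minus strand: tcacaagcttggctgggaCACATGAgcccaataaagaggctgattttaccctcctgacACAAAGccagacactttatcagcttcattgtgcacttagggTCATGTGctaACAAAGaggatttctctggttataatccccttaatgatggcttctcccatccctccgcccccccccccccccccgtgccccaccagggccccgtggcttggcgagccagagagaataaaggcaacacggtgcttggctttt
Tyr, chr7:87493513-87493762, minus strand: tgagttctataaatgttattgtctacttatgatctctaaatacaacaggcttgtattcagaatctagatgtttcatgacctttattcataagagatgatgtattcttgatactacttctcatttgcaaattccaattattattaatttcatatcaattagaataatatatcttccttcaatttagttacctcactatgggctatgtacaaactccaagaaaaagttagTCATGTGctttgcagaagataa
Tyrp1, chr4:80833963-80834212, plus strand: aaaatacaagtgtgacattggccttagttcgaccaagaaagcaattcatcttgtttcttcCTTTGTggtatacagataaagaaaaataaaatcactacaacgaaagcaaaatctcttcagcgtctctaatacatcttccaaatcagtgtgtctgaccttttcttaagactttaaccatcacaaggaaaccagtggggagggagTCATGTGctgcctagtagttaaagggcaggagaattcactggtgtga

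TCATGTG occurred before 3 of the 9 starts, those of Tyr, Tyrp1 and Dct, against 3.25% of 32841 start windows of the same length genome-wide. In Tyr it began 22 bases before the start, in Tyrp1 47 bases before it, and in Dct 232 and 151 bases before it. CATGTG, which every TCATGTG contains, was also found without the leading T before Oca2, and occurred in 12.3% of all windows. ACAAAG lay before Oca2, Dct and Tyrp1, against 16.5% of all windows. CACGTG (6.02% of windows) and the AP-1 letters TGANTCA (6.75%) were before none of the 9. These matches describe the letters and say nothing of binding.

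Start sites of the pigment enzymes were not under peaks, apart from 1 library at Dct. In each of TD replicates 1 and 2, IFE replicates 1 and 2 and HF replicate 1, 1 of the 9 starts was under a peak, and in HF replicate 2 it was 2 of 9. Over all 32851 starts in the RefSeq table the share was between 39.3% and 40.7% per library. The start under a peak in every library was the first start of Mitf, where all 250 bases shown lay under peaks. The second Mitf start, 122.8 kb further on, was 20.2 kb from the nearest region. The third, furthest downstream at 184.7 kb, was 15.3 kb from the nearest region, and no library had a peak there. The Tyrp1 start lay 30.3 kb and the Oca2 start 124.8 kb from the nearest region.

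**Figure D1:**
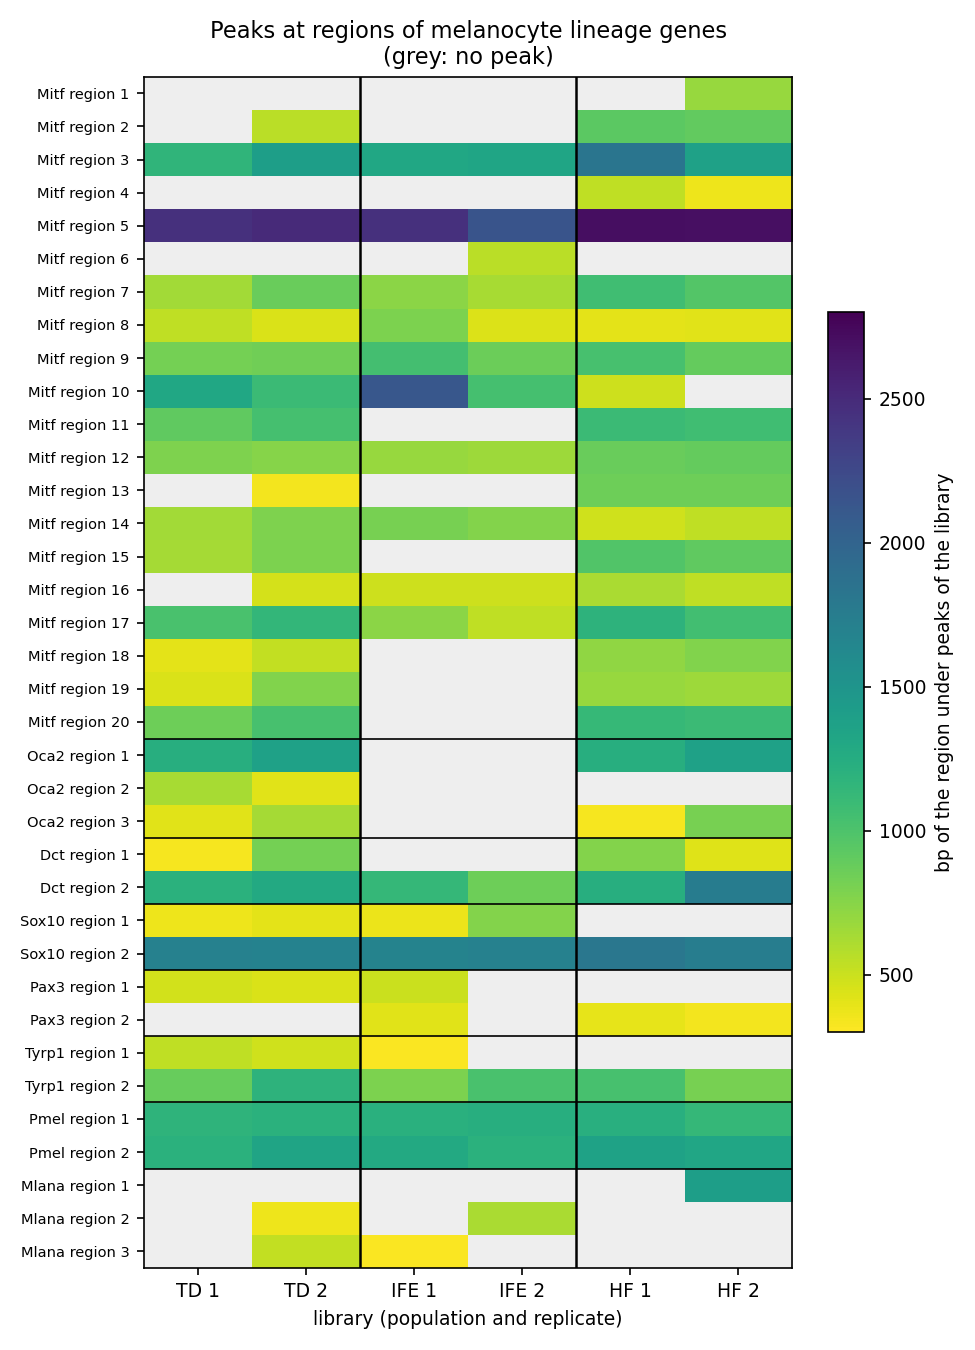
Rows are the 36 consensus regions by gene, numbered along the chromosome, columns the 6 libraries, and colour the bp of the region under that library's peaks (grey, no peak). Oca2 regions are grey in both IFE libraries, Pmel regions are open throughout, and in Mitf 5 regions are open in TD and HF and grey in IFE.

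Mitf, on chromosome 6 from 97807002 to 98021360, held 20 of the 36 regions, 14 in its span and 6 outside it. TD replicates had peaks at 14 and 17 of them, IFE replicates at 10 and 11, and HF replicates at 18 and 18. IFE was the lowest and HF the highest, and no values of 2 populations overlapped. Means were 15.5 ± 2.12 in TD, 10.5 ± 0.707 in IFE and 18.0 ± 0.0 in HF (SD, n = 2 each). The difference was 5.0 regions for TD minus IFE, -2.5 for TD minus HF and -7.5 for IFE minus HF. In a two-sided exact permutation test over the 4 libraries of a comparison, p was 0.333 for each of the 3, the smallest that 2 against 2 libraries allow. Adjusted over 16281 genes by Benjamini-Hochberg, p was 1.0 for each, 0.0% of genes (0 of 16281) passed in any comparison, and 0 genes had an unadjusted p under 0.05. Without TD replicate 1, TD minus HF was -1.0, without TD replicate 2 it was -4.0, and with a 100 kb window it was -7.0, with TD minus IFE at 7.5 and IFE minus HF at -14.5. With a 10 kb window the values met, at 10 and 13 in TD, 9 and 10 in IFE and 14 and 13 in HF, and TD and HF also met without IFE replicate 1, at 15 and 18 in TD and 18 and 18 in HF (difference -1.5). More open regions in both TD than in either IFE library, as at Mitf, was seen at 7.62% of genes. More in both HF than in either TD library was seen at 10.8%, and more in both HF than in either IFE library at 16.4%. These shares are over genes with a median of 2 regions, where Mitf had 20. Separation is easier with more regions, and genes of like size were not counted apart.

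Of the 20 Mitf regions 8 were open in all 6 libraries (40.0%, against 48.2% of regions near genes). They include the first start, chr6:97805938-97807766, whose peaks covered 1169 and 1397 bp in TD, 1314 and 1327 bp in IFE and 1829 and 1366 bp in HF. The widest, 20.5 kb past that start at chr6:97826204-97828909, had 2452 and 2507 bp under peaks in TD, 2457 and 2153 bp in IFE and 2706 and 2694 bp in HF. These 2 were the broadest shared sites of the locus, and at the second both HF libraries exceeded the other 4. For this and the widths below, the share of all regions with the same order was not counted, and widths may depend on the unknown depth.

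The next 3 followed at 28.9 kb (chr6:97835385-97836455), 31.0 kb (chr6:97837694-97838487) and 41.5 kb (chr6:97848019-97849088). A sixth lay at 76.5 kb (chr6:97883132-97884017). At 145.8 kb, chr6:97952486-97953303 had 642 and 786 bp under peaks in TD, 809 and 765 bp in IFE and 485 and 541 bp in HF, so HF peaks were the narrowest there. Past the gene end, chr6:98046109-98047288 had 1022 and 1145 bp in TD, 737 and 544 bp in IFE and 1180 and 1053 bp in HF, with both IFE peaks the narrowest.

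The Mitf regions that separated the populations were open in both TD and both HF libraries and closed in both IFE libraries, 5 of 20 in all (25.0%, against 3.28% of regions near genes). Of 16281 genes with regions, 25 had 5 or more such regions, Mitf included. Mitf is large, and 340 genes had at least its 20 regions, where the median gene had 2. The first of the 5, chr6:97871398-97872497 at 64.9 kb, had 913 and 1039 bp under peaks in TD, none in IFE, and 1100 and 1071 bp in HF. The second, chr6:98007086-98008091 at 200.5 kb, 15.3 kb past the third start, had 639 and 790 bp in TD, none in IFE, and 980 and 915 bp in HF. At both, the 2 HF peaks were wider than the 2 TD peaks, an order not counted over other regions.

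The other 3 lay in a cluster past the gene end with the shared region described above. At chr6:98048689-98049457, 27329 bp past the span, peaks covered 407 and 529 bp in TD and 716 and 769 bp in HF. At chr6:98059470-98060244 they covered 445 and 775 bp in TD and 681 and 668 bp in HF. At chr6:98063135-98064286 they covered 849 and 1023 bp in TD and 1122 and 1100 bp in HF. IFE had no peak at any of the 3, and HF peaks exceeded TD peaks at the first and last of these, while at the middle one the values overlapped. The next protein-coding gene, Gm765, was 173728 bp beyond the last of them.

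HF had further Mitf regions. Of the 20, 8 were open in both HF and neither IFE library (40.0%, against 12.8% of regions near genes), the 5 above among them. At chr6:97797375-97798301, at -9.2 kb and so before the first start, and chr6:97950039-97950901, at 143.4 kb, both HF libraries and TD replicate 2 had peaks. The second of these had 341 bp under peaks in TD replicate 2, against 850 and 852 bp in HF. At chr6:97818899-97819442 the HF libraries alone had peaks, of 544 and 364 bp. It was the 1 region of the 36 open in both HF libraries alone (2.78%, against 6.22% of regions near genes). No Mitf region was open in both TD and neither HF library (0 of 20, against 8.02% of regions near genes) or in both IFE and neither HF library (0 of 20, against 9.91%).

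The remaining 4 Mitf regions were uneven between replicates. At chr6:97854223-97856436 peaks covered 1307 and 1094 bp in TD, 2117 and 1039 bp in IFE, and 488 bp in HF replicate 1 with none in HF replicate 2. At chr6:98015721-98016339 TD replicate 1 was the library without a peak. HF replicate 2 alone was open at chr6:97757198-97757884, and IFE replicate 2 alone at chr6:97832907-97833460.

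**Figure D2:**
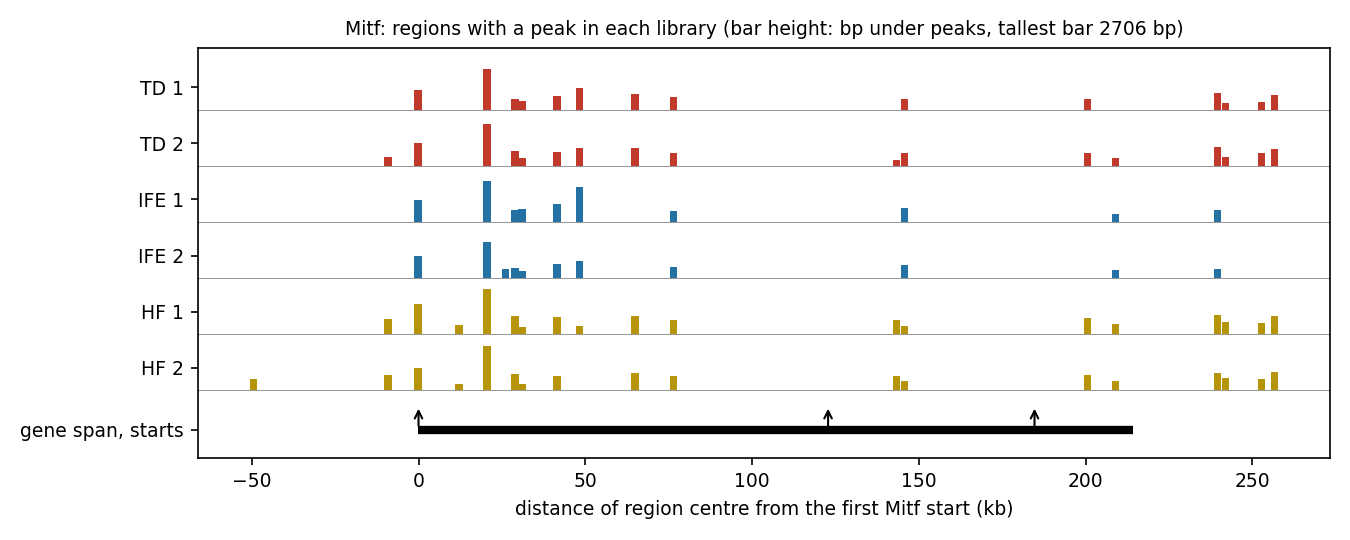
The Mitf locus by distance of each region's centre from the first start (kb), with 1 track per library, bar height giving bp under peaks, and the gene span with its 3 starts (arrows) below. Bars at 64.9, 200.5, 242.0, 252.8 and 256.7 kb appear in the TD and HF tracks and not in the IFE tracks, and none stands at the starts after the first.

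Sox10 and Pax3, whose proteins activate Mitf, had 2 regions each. At Sox10, on chromosome 15 from 79154913 to 79164490, no region touched the gene. Sox10 and Pax3 were not among the genes with start sites, so their regions are placed by coordinate and not by strand. One region past the Sox10 span at its higher-coordinate end, chr15:79192463-79194318, was open in all libraries, with 1684 to 1808 bp under peaks. The other, chr15:79176711-79177472, 12221 bp past the span, had 365 and 402 bp under peaks in TD, 378 and 762 bp in IFE and none in HF. It was the 1 region of the 36 open in all TD and IFE libraries and closed in HF (2.78%, against 6.31% of regions near genes). Both lay in the lncRNA gene Gm10863. Sox10 thus had 2 and 2 open regions in TD, 2 and 2 in IFE, and 1 and 1 in HF, and the exact permutation p (two-sided) was 0.333 for TD minus HF and for IFE minus HF. More in both TD than in either HF library was seen at 11.9% of genes, and more in IFE than in HF at 14.0%. Requiring 50% peak cover brought both Sox10 differences from 1.0 to 0.5. No region within 10 kb was placed at Sox10. The region nearest to its span, 6.0 kb away at chr15:79148490-79148962 and open in 4 libraries, was placed at Polr2f.

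Pax3, on chromosome 1 from 78101267 to 78197136, had a region across one end of its span, chr1:78196523-78197212, with 471 and 438 bp under peaks in TD, 500 bp in IFE replicate 1, and none in IFE replicate 2 or HF. The second, chr1:78203527-78204044, had peaks of 412 bp in IFE replicate 1 and 390 and 340 bp in HF, and none in TD or IFE replicate 2. The IFE replicates therefore held 2 and 0 Pax3 regions, a spread wider than any difference between populations.

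Kit, on chromosome 5 from 75574987 to 75656722, encodes the receptor for the keratinocyte-derived factor KITL and had no region in any library. The nearest peak-bearing region was 128.2 kb from the gene. Tyr, on chromosome 7 from 87424771 to 87493512, encodes tyrosinase, the rate-limiting enzyme of melanin synthesis. It also had none, and the nearest region was 225.0 kb away, nearer to Grm5.

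Tyrp1 and Dct encode the other melanin enzymes. Tyrp1, on chromosome 4 from 80834123 to 80851736, had 2 regions, both past its span. The nearer, chr4:80864497-80865091, had 541 and 479 bp under peaks in TD, 310 bp in IFE replicate 1, and none in IFE replicate 2 or HF. The further, chr4:80874150-80875471, was open in all libraries, with 790 to 1181 bp under peaks. Tyrp1 thus had 2 and 2 open regions in TD, 2 and 1 in IFE and 1 and 1 in HF. TD and HF did not overlap (exact permutation p, two-sided, 0.333), as at 11.9% of genes with more regions in TD.

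Dct, on chromosome 14 from 118012790 to 118052246, had a region at its start open in all 6 libraries, chr14:118050809-118052632. The peaks inside it mostly stopped short of the start, by 139 and 74 bp in TD, 300 and 443 bp in IFE and 28 bp in HF replicate 1. HF replicate 2 alone reached over the start, to 386 bp before it and so across all 250 bases shown above. IFE peaks ended furthest inside the gene, and TD and IFE distances did not overlap. Peak ends were not compared in this way over other starts, and they may depend on depth, which is unknown. The second Dct region, chr14:118001129-118001955, 10835 bp beyond the other end of the gene, had 333 and 827 bp under peaks in TD, none in IFE, and 765 and 421 bp in HF.

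Oca2, on chromosome 7 from 56239593 to 56536518, encodes a melanosome membrane transporter, and its start had no peak in any library. The regions placed at it had no peak in IFE. Its 3 regions all had peaks in both TD libraries and none in either IFE library, a pattern of 4.48% of regions near genes. Of the 3, 2 were open in both HF libraries. Inside the gene, 180.3 kb past the start, chr7:56419364-56420745 had 1233 and 1369 bp under peaks in TD, none in IFE, and 1230 and 1373 bp in HF. The TD and HF values there were nearly the same. At chr7:56549051-56549956, 12533 bp past the span, peaks covered 408 and 634 bp in TD and 338 and 817 bp in HF. Between them, 2177 bp past the span, chr7:56538695-56539321 had 627 and 413 bp under peaks in TD and none in IFE or HF. It was the 1 region of the 36 open in both TD libraries alone, a pattern of 0.967% of regions near genes. For Oca2 the differences were 3.0 open regions for TD minus IFE, 1.0 for TD minus HF and -2.0 for IFE minus HF, and the two-sided exact permutation test gave 0.333 as p for each. Separations without overlap in these directions were seen at 7.62%, 11.9% and 16.4% of genes.

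Pmel, on chromosome 10 from 128695888 to 128720238, encodes the fibril protein on which melanin is laid down, and both of its regions were open in all 6 libraries. The region chr10:128695675-128696964 also lay in Rab5b, and chr10:128704309-128705701 also lay in Cdk2, so neither can be given to Pmel rather than to its neighbour, and without regions shared in this way Pmel had none. Peak widths there were even, from 1135 to 1233 bp at the first and from 1200 to 1364 bp at the second.

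Mlana, on chromosome 19 from 29697541 to 29708447, encodes a melanosome protein that partners PMEL. Its 3 regions all lay before the span start and none was open in both libraries of any population. TD replicate 2 and IFE replicate 2 had peaks at chr19:29679391-29680262, TD replicate 2 and IFE replicate 1 at chr19:29683963-29684489, and HF replicate 2 alone at chr19:29675739-29677133. Open Mlana regions were 0 and 2 in TD, 1 and 1 in IFE and 0 and 1 in HF, which overlap.

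**Figure D3:**
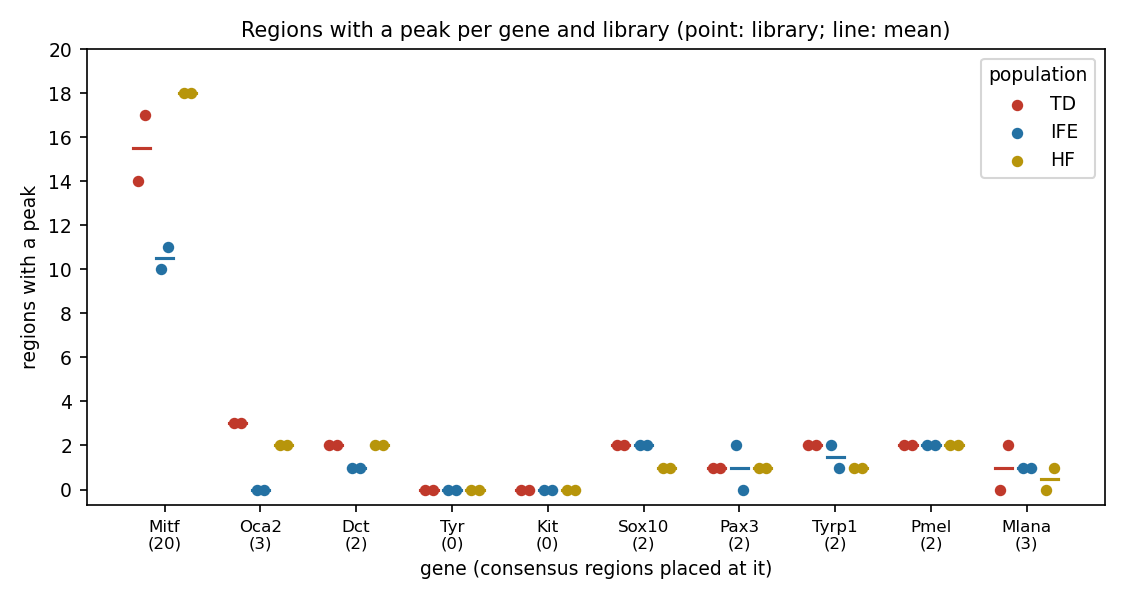
Number of regions with a peak (y axis) for each gene, with its number of consensus regions in brackets, in TD, IFE and HF, with points for libraries and lines for the means of 2. Mitf is at 14 and 17 in TD, 10 and 11 in IFE and 18 and 18 in HF, and Oca2 is at 3 and 3 in TD, 0 and 0 in IFE and 2 and 2 in HF.

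Over the whole set, TD libraries had peaks at 26 and 31 of the 36 regions, IFE libraries at 20 and 18, and HF libraries at 27 and 28. Over all regions near genes the shares were 66.5% and 78.4% in TD, 71.2% and 68.7% in IFE, and 72.4% and 74.8% in HF. For the melanocyte set they were 72.2% and 86.1% in TD, 55.6% and 50.0% in IFE, and 75.0% and 77.8% in HF. IFE was thus below its own background and TD above its own, while the HF total stood near its background. That HF total joined unlike parts. At Mitf, 18 and 18 of 20 regions were open in HF (90.0% in each library), and at the other 16 regions 9 and 10. Per 1000 open regions near genes, which allows for the number of peaks in a library, the set had 0.622 and 0.63 in TD, 0.447 and 0.417 in IFE and 0.594 and 0.596 in HF. Of the 16 regions outside Mitf, 12 and 14 were open in TD, 10 and 7 in IFE and 9 and 10 in HF, where IFE and HF overlapped.

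Between TD and IFE, 9 of the 36 regions (25.0%) were open in both TD and neither IFE library, against 4.48% of regions near genes, and 0 showed the reverse, against 1.82%. They came from 3 genes, with 5 at Mitf, 3 at Oca2 and 1 at Dct, and 8 of the 9 were also open in both HF libraries. The other 5 genes with regions had 0 in either direction. Counting open regions per gene, 3 of the 8 genes had more in both TD than in either IFE library, against 7.62% of genes, and 0 of 8 the reverse, against 3.77%. With a 10 kb window, 4 of 22 regions were open in TD and closed in IFE. The reverse count became 1 without TD replicate 2, without IFE replicate 1 or without IFE replicate 2.

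Between TD and HF, 4 of the 36 regions (11.1%) were open in both TD and neither HF library, 1 each at Oca2, Sox10, Pax3 and Tyrp1. The share near genes was 8.02%. In the other direction there were 2 (5.56%, against 7.26%), 1 each at Mitf and Pax3. The TD count became 1 when each library was held to the same number of its widest peaks, and the HF count became 5 without TD replicate 2 and 4 without HF replicate 1. Both shares stood near the background.

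Between IFE and HF, 1 region (2.78%, against 9.91%), at Sox10, was open in both IFE and neither HF library, and 11 (30.6%, against 12.8%) were open in both HF and neither IFE library, of which 8 were at Mitf, 2 at Oca2 and 1 at Dct. The IFE count became 4 without IFE replicate 1 or 2 and 2 without HF replicate 1. The HF count became 6 with a 10 kb and 18 with a 100 kb window. The comparisons share libraries, so the IFE-closed regions count in both this one and the one with TD. Of the 36 regions 0 were open in both IFE libraries alone (against 1.22%), and 0 in all IFE and HF libraries with TD closed (against 0.336%).

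**Figure D4:**
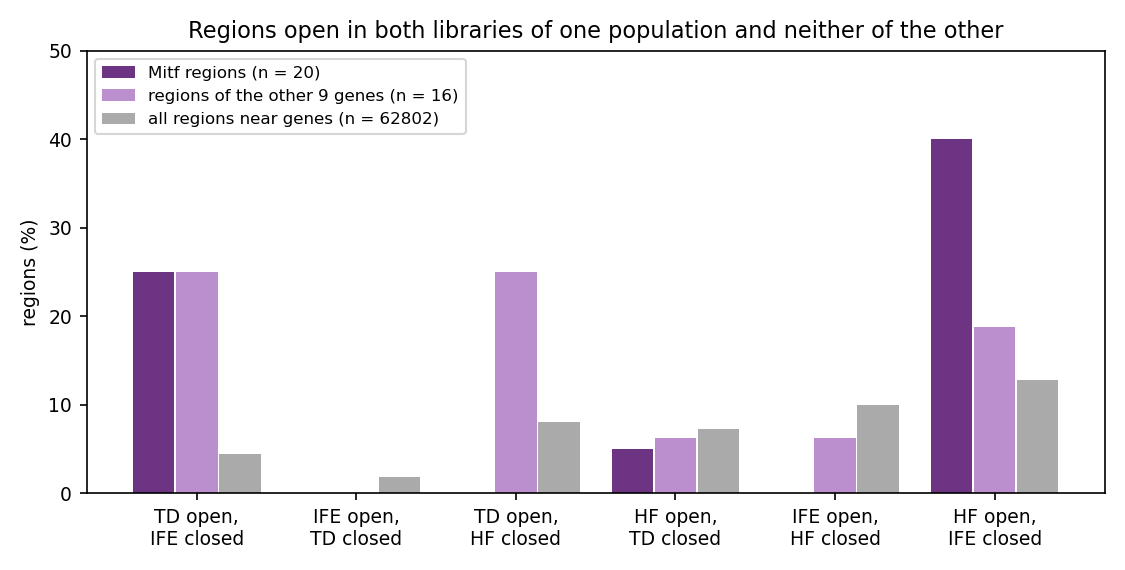
Share (%) of the 20 Mitf regions, the 16 regions of the other genes, and all 62802 regions near genes that were open in both libraries of one population and closed in both of another. Mitf and the other genes both stand at 25.0% for TD open and IFE closed, against 4.48% of regions near genes.

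Replicates disagreed at 5 of the 36 regions in TD (13.9%, against 16.2% of regions near genes), at 6 in IFE (16.7%, against 11.0%) and at 3 in HF (8.33%, against 13.2%). In IFE, 5 of the 6 were outside Mitf. Of the 36 regions 3 were open in 1 library alone (8.33%, against 13.1%). The 36 regions had a median width of 896 bp, against 974 bp for regions near genes.

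SOX10 is also made by Schwann cells, and KIT and MITF by mast cells, so markers of these and other skin cells were counted in the same way. Of 8 Schwann cell markers, 5 had regions, with 23 and 26 of 31 open in TD, 27 and 26 in IFE and 24 and 28 in HF, and S100b and Foxd3 were among those with none. Of 7 mast cell markers, 3 had regions, with 4 and 7 of 12 open in TD, 9 and 8 in IFE and 4 and 3 in HF, and Cpa3, Mcpt4, Fcer1a and Ms4a2 had none. Of the fibroblast markers, 4 of 5 had regions, with 13 and 16 of 22 open in TD, 11 and 8 in IFE and 15 and 15 in HF, so IFE was lowest there, and 5 of the 22 (22.7%) were open in both TD and neither IFE library. Of the 5 immune markers, 3 had regions, with 3 and 3 of 3 open in TD, 2 and 2 in IFE and 1 and 1 in HF, while Cd207 and Itgax had none. The region of Ptprc, which encodes the leukocyte antigen CD45, was open in both TD libraries alone, a pattern of 0.967% of regions near genes. That of Cd3e was open in all TD and IFE libraries and closed in HF, and that of Cd74 was open in all 6 libraries. Hair follicle markers (Lhx2, Lgr5, Sox9, Cd34 and Krt15) had 30 and 36 of 48 regions open in TD, 22 and 22 in IFE and 42 and 44 in HF. IFE was lowest there too, and 8 of the 48 (16.7%) were open in both TD and neither IFE library, against 4.48% of regions near genes. All 6 Merkel cell markers had regions, with 5 and 9 of 14 open in TD, 8 and 6 in IFE and 10 and 12 in HF. Of these 14, 2 (14.3%) were open in both TD and neither IFE library and 0 the reverse. Immune markers had 1 of 3 (33.3%) and 0 the reverse. Mast cell markers had 0 and 3 of 12 (25.0%) the reverse, and Schwann cell markers 0 and 2 of 31 (6.45%). The reverse held for 1 fibroblast region (4.55%) and 0 follicle regions, against 1.82% of regions near genes. The part of any other cell type in the melanocyte set was not tested.

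Other pigment cell genes stood near the background. Of 26 genes, which include melanosome transport and neural crest genes, 22 had regions and Gpr143, Foxd3, Tfec and S100b had none. Of their 125 regions, 4 (3.2%) were open in both TD and neither IFE library and 1 (0.8%) the reverse, against 4.48% and 1.82% of regions near genes. In the same way 12 (9.6%) and 7 (5.6%) separated TD from HF, against 8.02% and 7.26%. Between IFE and HF it was 14 (11.2%) and 12 (9.6%), against 9.91% and 12.8%. Met, the receptor of hepatocyte growth factor, had 18 regions, of which 16 and 18 were open in TD, 16 and 17 in IFE and 11 and 11 in HF. Bcl2, a survival gene that MITF activates, had 11 and 12 of 17 open in TD, 9 and 8 in IFE and 9 and 13 in HF. Rab27a, which moves melanosomes, had 4 and 5 of 7 open in TD, 6 and 6 in IFE and 4 and 4 in HF. Trpm1, a channel gene that MITF activates, had 9 and 12 of 14 open in TD, 10 and 9 in IFE and 7 and 9 in HF. Met was lower in both HF libraries than in the other 4, Rab27a higher in both IFE libraries than in the other 4, and Bcl2 higher in both TD than in either IFE library. Over all genes, 11.9% had more open regions in both TD than in either HF library, and 14.0% more in IFE than in HF. More in IFE than in TD was seen at 3.77%, and more in TD than in IFE at 7.62%. These 4 genes were named for their number of population-specific regions, so such separations were favoured by the choice.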

How the data were processed

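The authors deposited 1 peak list per library (2 each of TD, IFE and HF) with chromosome, start, end and name and no score. The submitters' processing notes name MACS2 2.2.7.1 and SAMtools 1.9 beside Bowtie2 2.4.5 and Trim Galore 0.6.7, and the build mm10. Their settings, the peak threshold and any shift for the transposase cut were not given in the sources used here. Calling peaks per library makes presence depend on that library's depth, which is unknown.

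Peaks sharing at least 1 bp were merged, and a region was open in a library with a peak in it. Regions went to the nearest of 21887 protein-coding RefSeq spans (GRCm38.p6, no mitochondrial genes) within 50 kb. A region inside several spans counted for each, and all 10 gene symbols matched. No exon annotation and no genome sequence of regions was used here. Coordinates count from 1 and kb distances run from region centres to the first start. The number of open regions per gene was compared by an exact two-sided permutation test over libraries, Benjamini-Hochberg adjusted over 16281 genes, with a threshold of 0.05. The region builder and the test were checked on simulated data. Motifs were searched in start windows without unknown bases. Python 3.11.15, numpy 2.4.6 and pandas 2.3.3 were used.

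The genes, lists and settings were chosen with earlier results of these data known. All 10 genes were named, up to 4 per pigment and ligand list by the number of population-specific regions, and the 5 genes of at least 10 regions most like Mitf. Marker genes are named with their lists. Some genes under these rules are not reported here. Equal replicate numbers were not taken as pairs, since no label ties them to an animal or day.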

Additional observations from a re-analysis of the deposited data

How the results depend on the processing

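Of 30 per-gene differences in open regions, 15 were 0 as reported. Repeats of the other 15 numbered 210, of which 1 changed sign and 17 became 0, and repeats of those at 0 moved off it 19 times, to between -1.0 and 3.0. None could pass the threshold in a design of this size. The sign change was at Mlana for TD minus HF, 0.5 as reported and -0.5 without TD replicate 2. Tyr and Kit had 0 regions in every setting. With a 10 kb window, which keeps fewer regions, Sox10, Tyrp1 and Mlana had 0 regions, so their differences were 0, and those of Dct were 0 too. There were 22 regions at 5 genes, of which 4 were open in TD and closed in IFE, 2 open in TD and closed in HF, 0 open in IFE and closed in HF, 6 open in HF and closed in IFE, and 3 open in TD and HF and closed in IFE. With 100 kb, 6 were open in HF and closed in TD and 18 open in HF and closed in IFE. Counting every region within 50 kb of a gene in the set gave 63 regions, with 25 open in every library, 1 open in IFE and closed in TD, 7 open in TD and closed in HF, and 4 open in IFE and closed in HF. Requiring 50% peak cover left 0 open in IFE and closed in HF. With 50153 widest peaks per library, 1 was open in IFE and closed in TD and 1 open in TD and closed in HF. The cause was not tested for the last 2 settings.

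Without 1 library at a time, regions open in TD and closed in IFE ranged from 9 to 12 and the reverse from 0 to 1, those open in TD and closed in HF from 4 to 6 and the reverse from 2 to 5, and those open in IFE and closed in HF from 1 to 4 and the reverse from 11 to 13. Leaving out a library loosens the criterion by construction. Pairing libraries by replicate number (replicate block) left the Mitf differences at 5.0, -2.5 and -7.5, with an exact permutation p of 0.5 for each, the smallest that 2 pairs allow. Differences between replicates correlated over regions by 0.0545 (TD with IFE), 0.00404 (TD with HF) and 0.0591 (IFE with HF). These values cannot show whether equal numbers share an animal or day. Leaving out regions that lie in several gene spans removed both Pmel regions, for 34 regions at 7 genes, but like merging within 100 bp it moved no count over the whole set by more than 1.5 times.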

Other observations

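Genes for factors that skin cells send to melanocytes were counted in the same way, in a list that also held the transcription factor gene Foxn1 (6 regions). Of the 12 genes listed, 11 were matched and 8 had regions, while Edn3, Pomc and Dkk1 had none. Of their 63 regions, 3 (4.76%) were open in both TD and neither IFE library and 1 (1.59%) the reverse, against 4.48% and 1.82% of regions near genes. Between TD and HF, 10 (15.9%) were open in TD alone of the pair and 7 (11.1%) in HF alone of the pair, against 8.02% and 7.26%. Between IFE and HF there were 10 (15.9%) in each direction, against 9.91% open in IFE and 12.8% open in HF. Kitl, the ligand of the receptor KIT, had 5 and 7 of its 7 regions open in TD, 4 and 4 in IFE and 5 and 5 in HF. Tgfb2 had 12 and 14 of 17 open in TD, 13 and 11 in IFE and 10 and 11 in HF. Edn1, an endothelin gene, had 10 and 11 of 13 in TD, 10 and 10 in IFE and 7 and 8 in HF.

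Among the genes whose share of open regions across the 6 libraries lay nearest to that of Mitf, by Euclidean distance among 1469 other genes with at least 10 regions, were Fmn1 (distance 0.0704), Rapgef1 (0.127), Snrk (0.135) and Vps53 (0.145). Fmn1 had 16 and 18 of its 21 regions open in TD, 10 and 12 in IFE and 19 and 19 in HF, with 4 open in both TD and both HF libraries and closed in IFE.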
